A study of Trichosurus vulpecula with 6 samples.

Results

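The 9 genes described here, CORIN, SOX18, WIF1, ALPL, FGF7, FGF10, RSPO3, BMP4 and VCAN, were chosen by name as signals and regulators of the dermal papilla, out of 18063 genes of the possum RefSeq annotation (assembly mTriVul1.pri) that had at least 1 assembled transcript in skin. All 9 were found and all 9 passed the filter of a mean of at least 1 TPM (a level scaled to transcript length and library size), together with 15607 genes in all. Values are sums of TPM over the transcripts assembled at each gene. The skin came from ear punches of 6 adult female common brushtail possums (Trichosurus vulpecula), 3 with grey and 3 with black fur, 1 sequencing library per possum, and the animals had been killed for pest control. The comparison asks which genes differ in skin between the coat colours. A punch of ear skin holds epidermis, dermis, vessels and ear cartilage as well as hair follicles. The hair cycle stage of each possum was not used here.

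The dermal papilla is the knot of mesenchymal cells at the base of the hair follicle that instructs the matrix cells and melanocytes around it. It releases WNT, BMP and FGF signals, and their inhibitors, that set when a hair grows, and it is the source of agouti signalling protein (ASIP), which makes melanocytes switch from black to yellow pigment. CORIN, a membrane serine protease of papilla cells, is known in the mouse as a modifier that dampens agouti, and SOX18, a transcription factor, is known to act in the papilla as well as in endothelium. WIF1 and FGF7 are also made elsewhere, WIF1 in cartilage and FGF7 in dermal fibroblasts.

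The libraries held 4.17 to 10.2 gigabases of aligned sequence, with the lowest depth in grey replicate 1. Of 18 listed genes of the hair shaft and matrix, 8 had a transcript. These summed to 1076 TPM in grey replicate 1 and to between 72.0 and 117 TPM in the other 5 libraries. In grey replicate 1, KRT25 gave 736 TPM and TCHH 199 TPM. Of the 8 genes, 7 were highest in grey replicate 1 and 1 in grey replicate 3. Genes of skeletal muscle summed to 3413 TPM in black replicate 1 and to between 7.26 and 13.4 TPM elsewhere. S100A8, a gene of the macrophage and neutrophil list, reached 7795 TPM in grey replicate 3 and lay between 110 and 803 TPM elsewhere. Of the 7 measured genes of that list, 2 were highest and 2 lowest in grey replicate 3. The part of these 3 libraries' differences in the values below was not tested beyond leaving each library out in turn. In bulk skin, fewer cells of a type and less RNA per cell cannot be told apart. The p-values measure the spread between 3 possums of each colour.

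None of the 9 genes differed between the colours past the threshold. With limma on log2(TPM + 1), 0 of 9 had an adjusted p under 0.05, against 2 of 15607 genes tested (0.0128%), of which 1 was higher (0.00641%) and 1 lower (0.00641%) in black, and 0 of 9 had an unadjusted p under 0.05, against 366 genes (2.35%). Every black library lay above every grey library in 1 of the 9 genes, ALPL, against 642 genes (4.11%), and below in 0 of 9, against 357 genes (2.29%). The fitted difference, black minus grey, was above 0 for 6 genes and below 0 for 3, with a median of 0.21 on the log2 scale against 0.04 over all genes tested. By coverage per aligned gigabase in place of TPM, 4 genes were above 0 and 5 below, with a median of -0.14. The residual SD within colours had a median of 0.44 log2 units over the 9 genes and 0.33 over all genes, and 6 of the 9 lay above that general median.

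**Figure D1:**
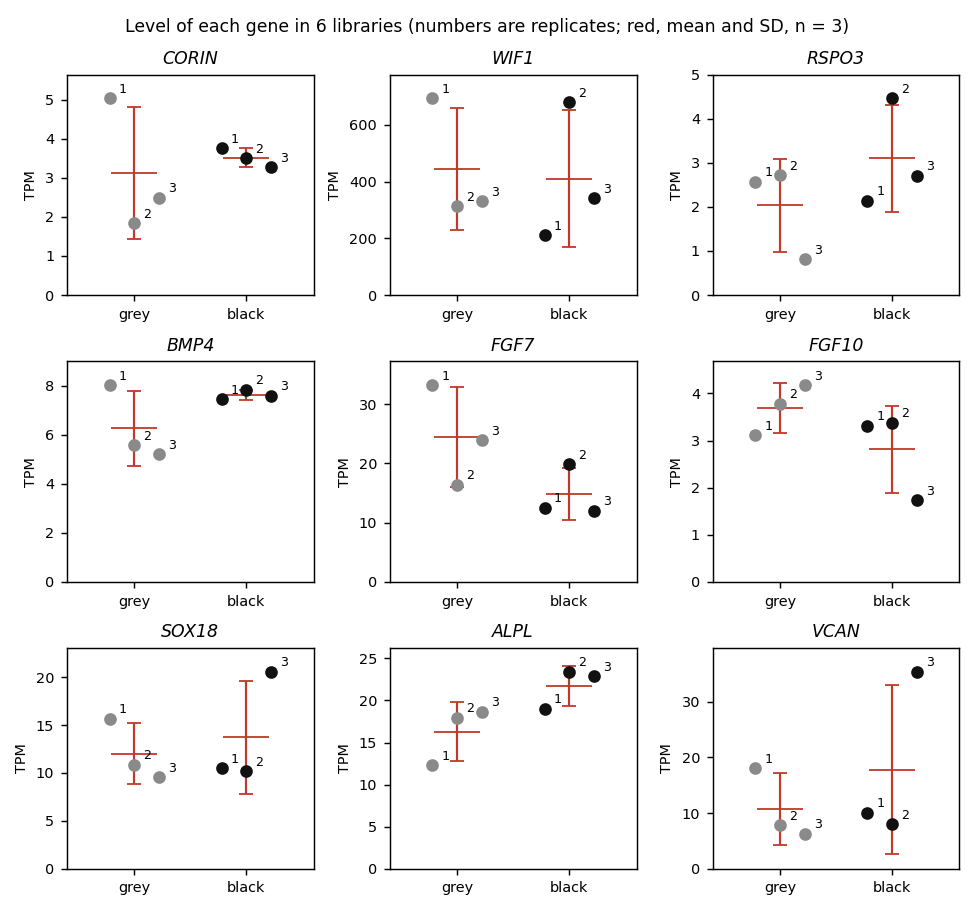
Level (TPM, linear axis from 0) of each of the 9 genes in 3 grey and 3 black libraries, with replicate numbers beside the points and the mean and SD (n = 3) in red. The colours overlap in every panel except ALPL, where the lowest black library (19.0 TPM) lies just above the highest grey library (18.7 TPM).

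The 9 genes covered a wide range of levels. WIF1 was the highest, with a mean of 428 TPM over 6 libraries, a level exceeded by 263 genes. FGF7 (19.7 TPM), ALPL (19.0 TPM), VCAN (14.3 TPM) and SOX18 (12.9 TPM) followed, and their ranges over libraries overlapped, so their order is within the spread. BMP4 averaged 6.96 TPM, and CORIN (3.32 TPM), FGF10 (3.25 TPM) and RSPO3 (2.57 TPM) were lowest, with 15.2%, 14.9% and 10.9% of the genes tested below them and overlapping ranges. The ranges of WIF1 and FGF7 did not meet, with 211 TPM as the lowest value of WIF1 and 33.2 TPM as the highest of FGF7. The genes did not move together over the libraries. By TPM, 4 of 9 were highest in grey replicate 1, 2 in black replicate 2, 2 in black replicate 3 and 1 in grey replicate 3. Among 21 other papilla genes fixed as a list, 17 had a transcript, 16 were tested and 0 passed, and SOX2, CRABP1, HHIP and NRG3 were not matched to a transcript. Which cells of the punch the RNA of the 9 genes came from was not tested.

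CORIN lies on chromosome 6 (159801065-160017592, plus strand). Its summed level was 5.04, 1.83 and 2.49 TPM in grey replicates 1 to 3, against 3.76, 3.51 and 3.27 TPM in black replicates 1 to 3. Grey replicate 1 was highest and the other 2 grey possums were lowest, so that the black values lay inside the grey range. The means were 3.12 ± 1.69 TPM in the grey libraries against 3.51 ± 0.25 TPM in the black (SD, n = 3), a log2 difference of 0.21 (95% interval -0.59 to 1.00, limma adjusted p 1.00).

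CORIN was assembled only in pieces, so that its TPM is a sum over fragments of a transcript. The exons assembled in any library covered 5268 nt, of which 58.2%, 89.0% and 81.7% were found in the grey and 48.3%, 92.7% and 56.2% in the black libraries, in 4, 2 and 2 separate pieces and in 5, 3 and 5. The pieces rested on 73.3, 154 and 240 reads in grey and on 60.5, 245 and 59.9 reads in black. Between 37.3% and 72.3% of these reads lay after a gap that no transcript of any library crossed. In reads per aligned gigabase, CORIN was at 17.6, 18.4 and 23.4 in grey and at 7.98, 28.8 and 9.24 in black. The lowest 2 values were then black and the highest was also black, and the difference changed its sign to -0.35 (95% interval -1.34 to 0.64) when coverage per aligned gigabase took the place of TPM. In black replicate 3, a 25-exon transcript of NFXL1, the neighbouring gene on the same strand, ran on into 2 exons of CORIN at a level of 1.14 TPM, was counted as NFXL1 and put 2.12 reads in these exons.

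**Figure D2:**
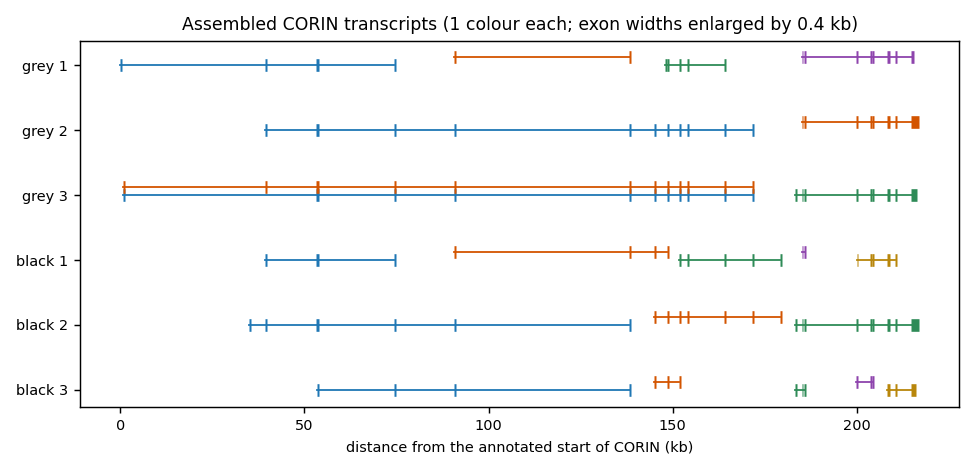
Assembled CORIN transcripts in each library, drawn by distance from the annotated start (kb), with 1 colour for each transcript, vertical bars for exons and lines for introns. No library joins the exons before about 180 kb to those after it, and the number of pieces runs from 2 to 5.

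ASIP, the signal that CORIN modifies, was at 3.88, 1.65 and 0.41 TPM in the grey libraries against 4.05, 2.28 and 1.39 TPM in the black. The ratio of CORIN to ASIP by summed TPM was 1.30, 1.11 and 6.03 in grey and 0.93, 1.54 and 2.34 in black. CORIN was summed over 2 to 5 separate pieces, so the ratio depends on how its transcript was assembled. In reads per aligned gigabase, ASIP was at 23.1, 9.17 and 0.66 in grey and at 27.5, 14.6 and 3.47 in black. CORIN was at 17.6, 18.4 and 23.4 in grey and at 7.98, 28.8 and 9.24 in black. Grey replicate 3, with the lowest ASIP level of the 6, stood apart in the TPM ratio. Its CORIN level was second lowest by TPM but second highest in reads per aligned gigabase. ASIP rested on only 6.75 reads in that library, against 22.5 to 209 reads in the others, so its ratio of 6.03 is uncertain. ATRN, the accessory receptor through which agouti acts, was at 20.5 to 27.9 TPM in the grey libraries against 14.7 to 20.7 TPM in the black, with overlapping ranges.

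The WNT regulators of the papilla gave the largest and the smallest levels among the 9 genes. WIF1, a secreted protein that binds WNT ligands and blocks them, lies on chromosome 5 (255429323-255543690, plus strand). It was at 695, 313 and 330 TPM in the grey libraries against 211, 680 and 341 TPM in the black. Grey replicate 1 and black replicate 2 stood at about the same high level and black replicate 1 was lowest. The means, 446 ± 216 TPM in the grey libraries against 411 ± 242 TPM in the black (SD, n = 3), differed by -0.18 on the log2 scale (95% interval -1.34 to 0.98, limma adjusted p 1.00), and the sign turned to 0.19 without grey replicate 1 and to 0.21 without black replicate 1.

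The genes whose profile over the 6 libraries was nearest to that of WIF1 were SMOC2 (root mean square difference of 0.15 log2 units) and CPE (0.21). SMOC2 was at 144, 73.1 and 59.9 TPM in the grey libraries against 48.2, 158 and 63.6 TPM in the black, high in the same 2 libraries as WIF1. FRZB, another secreted WNT inhibitor and a gene of cartilage, was at 549, 164 and 139 TPM in the grey libraries against 232, 487 and 178 TPM in the black. The 11 cartilage genes measured summed to 920, 377 and 391 TPM in the grey libraries against 318, 440 and 401 TPM in the black. Of these 11, the 9 that passed the filter were all highest in grey replicate 1, where WIF1 was high. The other 2, with means of 0.59 and 0.56 TPM, were below the filter and were highest in black replicate 2. WIF1 was also high in black replicate 2, at 0.80 log2 units from its mean over the 6 libraries. The cartilage sum there was 440 TPM, at -0.012 log2 units from its mean. The part of cartilage in the WIF1 level was not tested.

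Each library held a 10-exon WIF1 transcript and an 11-exon transcript that lacked 42 nt (255544049-255544090) of the last exon, past the end of the annotated gene. The transcript with the gap made up 29.4%, 30.2% and 22.2% of WIF1 TPM in the grey libraries against 23.2%, 22.9% and 21.2% in black. The share was highest in grey replicates 1 and 2, and grey replicate 3 lay within the black range.

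RSPO3, a secreted protein that strengthens WNT signalling through LGR receptors, lies on chromosome 7 (135242277-135299089, minus strand). It was at 2.57, 2.72 and 0.81 TPM in the grey libraries against 2.14, 4.47 and 2.71 TPM in the black. Grey replicate 3 was lowest and black replicate 2 was highest, with the other 4 libraries between 2.14 and 2.72 TPM. The log2 difference was 0.47 (95% interval -0.48 to 1.41, limma adjusted p 1.00), the means being 2.03 ± 1.06 TPM in the grey libraries against 3.11 ± 1.21 TPM in the black (SD, n = 3). The nearest profiles were those of CBR4 (0.06 log2 units) and RBKS (0.10), a pair of metabolic enzymes.

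In all 6 libraries the RSPO3 transcript ran past the annotated gene. An intron of 53265 nt (chromosome 7, 135189074-135242338) led from an assembled exon inside the RefSeq span to a last exon outside it. Sequence from this last exon onwards held 43.8% of the reads of RSPO3 in grey replicate 1 and 63.7% to 75.4% in the other 5. The reads of RSPO3 numbered 81.0, 92.4 and 60.3 in grey and 157, 380 and 87.2 in black. In grey replicate 2 and black replicate 3 the gene was assembled in 2 pieces.

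The ratio of WIF1 to RSPO3, inhibitor over agonist on the same scale, was 270, 115 and 406 in grey and 98.6, 152 and 126 in black. By summed TPM the highest 2 ratios were grey, grey replicate 2 lay within the black range, and every ratio was at least 98.6. In grey replicate 2 and black replicate 3 the RSPO3 level is a sum over 2 separate pieces. In reads per aligned gigabase, RSPO3 was at 19.4, 11.0 and 5.89 in grey and at 20.7, 44.7 and 13.5 in black. WIF1 was at 6103, 2619 and 2942 in grey and at 1806, 6138 and 3088 in black. The overlap of the colours in this ratio thus depends on the scale.

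Of 48 further genes fixed as WNT ligands, receptors, inhibitors and targets, 42 were tested and 0 passed in either direction, with 21 differences above and 21 below 0. The most abundant were FZD1, FZD6 and LGR4 among receptors, WNT4, WNT10A and WNT7B among ligands, FRZB, DKK3 and SFRP2 among inhibitors and NKD2, CCND1 and TNFRSF19 among targets. FZD1, a WNT receptor, was at 42.2, 40.8 and 30.3 TPM in the grey libraries against 41.2, 35.4 and 37.6 TPM in the black. LGR4, a receptor for R-spondins, was at 30.1, 27.3 and 27.1 TPM in the grey libraries against 28.8, 24.2 and 23.4 TPM in the black. Both receptors overlapped between the colours.

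Of the 42 WNT genes tested, WNT3A and WNT5B had every black library above every grey library, and WNT16 and DKK1 every black library below. Over all genes tested, 4.11% lay above and 2.29% below in this way. The 4 genes are named because their values were seen. WNT3A was at 2.47 to 3.09 TPM in the grey libraries against 3.51 to 8.52 TPM in the black (log2 difference 0.85), and WNT5B at 0.66 to 1.00 TPM in the grey libraries against 1.56 to 2.69 TPM in the black (0.81). WNT16 was at 7.85 to 11.3 TPM in the grey libraries against 5.45 to 6.82 TPM in the black (-0.56). DKK1, an inhibitor known to be made by papilla cells, was at 1.09 to 4.66 TPM in the grey libraries against 0.80 to 0.88 TPM in the black (-0.77), a difference that was -0.34 without grey replicate 1 and -0.46 with multi-exon transcripts only. All 4 had a limma adjusted p of 1.00.

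BMP4, a ligand that papilla cells make and that restrains hair growth outside the growth phase, lies on chromosome 3 (43594948-43599156, minus strand). It was at 8.04, 5.59 and 5.22 TPM in the grey libraries against 7.46, 7.84 and 7.61 TPM in the black. The black possums lay close together, above grey replicates 2 and 3 but below grey replicate 1. The means were 6.28 ± 1.53 TPM and 7.64 ± 0.19 TPM (SD, n = 3), a log2 difference of 0.27 (95% interval -0.25 to 0.78, limma adjusted p 1.00).

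Part of the summed BMP4 TPM of the black libraries was assigned from sequence away from the annotated gene. Each black library, and 0 of 3 grey libraries, held a transcript with an exon 6812 nt past the annotated end on the same strand, at 3.01, 0.90 and 1.53 TPM. In black replicates 1 and 3 these were single-exon pieces of 269 and 346 nt, not joined to the gene. Only in black replicate 2 did a transcript, of 3 exons, run from within the gene to this exon. Without these transcripts BMP4 was at 4.44, 6.94 and 6.08 TPM in the black, against the 5.22 to 8.04 TPM of grey, and the colours overlapped throughout. The difference also changed sign with multi-exon transcripts only (-0.04) and with coverage per aligned gigabase (-0.14).

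Of 35 further BMP ligands, receptors, inhibitors and targets, 32 were tested and 0 passed, with 20 differences above and 12 below 0. BMP5, BMP2 and GDF5 were the most abundant ligands of the list, SMAD1, SMAD4 and BMPR2 the most abundant receptors and transducers, and FSTL1, TWSG1 and FST the most abundant inhibitors. Targets were led by ID2, ID1 and ID4. ID2 was at 84.4 to 114 TPM in the grey libraries against 99.0 to 105 TPM in the black, within the grey range. ID4 was at 133, 79.4 and 101 TPM in the grey libraries against 51.1, 60.5 and 73.4 TPM in the black. Every black library lay below every grey library, with a log2 difference of -0.74 (limma unadjusted p 0.018, adjusted p 1.00). ID4 was the 1 gene of the 32 tested whose colours did not overlap. Over all genes tested, every black library lay below every grey library in 2.29% and above in 4.11%.

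The FGF ligands of the papilla, FGF7 and FGF10, share the receptor FGFR2 in its epithelial form and act on the keratinocytes of the follicle. FGF7 lies on chromosome 8 (170307622-170398448, minus strand) and was at 33.2, 16.4 and 23.9 TPM in the grey libraries against 12.5, 19.9 and 12.0 TPM in the black. Grey replicate 1 was highest, black replicates 1 and 3 were lowest, and grey replicate 2 lay below black replicate 2. The means were 24.5 ± 8.44 TPM in the grey libraries against 14.8 ± 4.43 TPM in the black (SD, n = 3). The log2 difference of -0.67 was the largest in size among the 9 genes on the log2(TPM + 1) scale (95% interval -1.41 to 0.06, limma unadjusted p 0.068, adjusted p 1.00), and it stayed below 0 in all 15 alternative settings and with any library left out (-0.92 to -0.43). By coverage per aligned gigabase it was -0.65, smaller in size than that of RSPO3 (0.71). A 4-exon transcript held 86.3% to 100% of FGF7 TPM.

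The profile nearest to FGF7 was that of ACAN, which encodes aggrecan, the large proteoglycan of cartilage, with a root mean square difference of 0.11 log2 units. ACAN was at 257, 136 and 192 TPM in the grey libraries against 124, 174 and 114 TPM in the black. Both genes had grey replicate 1 highest and black replicate 3 lowest, and HEXIM1 (0.12) followed as the second nearest. The part of cartilage in the FGF7 level was not tested.

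FGF10 lies on chromosome 1 (410312957-410430125, minus strand) and was at 3.11, 3.78 and 4.18 TPM in the grey libraries against 3.32, 3.38 and 1.74 TPM in the black. By TPM, black replicate 3 was lowest, and the other 5 libraries lay between 3.11 and 4.18 TPM. In black replicate 1 this level is a sum over 2 separate pieces, at 2.28 and 1.04 TPM. In reads per aligned gigabase, FGF10 was at 53.0, 64.2 and 73.7 in grey and at 34.9, 60.2 and 26.7 in black. Black replicates 1 and 3 were then both below the grey range. The log2 difference by TPM was -0.33 (95% interval -1.01 to 0.36, limma adjusted p 1.00). The means were 3.69 ± 0.54 TPM in the grey libraries against 2.81 ± 0.93 TPM in the black (SD, n = 3). FGF7 was 10.7, 4.34 and 5.73 times FGF10 in grey and 3.77, 5.90 and 6.89 times in black, so that FGF7 was the higher of the 2 ligands in every library and the colours overlapped in the ratio.

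Of 21 further FGF ligands, receptors, targets and inhibitors, 17 were tested and 0 passed, with 7 differences above and 10 below 0. FGFR2, the receptor for FGF7 and FGF10, averaged 47.9 TPM in the grey libraries, of which replicate 1 was highest, and 46.1 TPM in the black, which lay between 36.9 and 51.9 TPM, so that the colours overlapped. FGFR3 (91.6 to 165 TPM) and FGFR1 (59.5 to 115 TPM) were the other most abundant receptors, and FGF2, FGF22 and FGF1 the most abundant ligands of the list. ETV4, a transcription factor raised by FGF signalling, had every black library (9.99 to 23.3 TPM) above every grey library (7.47 to 8.86 TPM), with a log2 difference of 0.68 and a limma adjusted p of 1.00. Its difference was 0.13 by coverage per aligned gigabase and 0.32 without black replicate 3. ETV4 is named because its values were seen, as is HGF, a growth factor of papilla cells. HGF was at 2.06 to 2.39 TPM in the grey libraries against 3.30 to 5.24 TPM in the black (log2 difference 0.62, limma adjusted p 1.00). ETV4 was the 1 gene of 17 tested in the FGF list, and HGF of 16 in the other papilla list, without overlap. Over all genes tested, every black library lay above every grey library in 4.11% and below in 2.29%.

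SOX18 lies on chromosome 3 (178370650-178373997, plus strand) and was assembled as 1 transcript of 2 exons in every library. It was at 15.7, 10.9 and 9.54 TPM in the grey libraries against 10.5, 10.2 and 20.6 TPM in the black. Black replicate 3 and grey replicate 1 were high and the other 4 libraries lay between 9.54 and 10.9 TPM. The means were 12.0 ± 3.22 TPM in the grey libraries against 13.7 ± 5.90 TPM in the black (SD, n = 3). The log2 difference was 0.14 (95% interval -0.62 to 0.90, limma adjusted p 1.00) and turned to -0.17 without black replicate 3, and to -0.0016 without grey replicate 3.

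SOX18 was set beside the endothelial genes, since vessels also express it. The 13 endothelial genes measured summed to 223, 263 and 229 TPM in the grey libraries against 312, 225 and 226 TPM in the black. The 2 libraries with the highest SOX18, black replicate 3 (226 TPM) and grey replicate 1 (223 TPM), were among the 3 lowest in the endothelial sum, and black replicate 1, with the highest sum, had 10.5 TPM of SOX18. Of the 13 genes, 3 (CDH5, FLT4 and KDR) were highest in grey replicate 1, 2 (EGFL7 and PROX1) in black replicate 3, 4 in grey replicate 2 and 4 in black replicate 1. The part of endothelium in the SOX18 level was not tested. PECAM1, an endothelial adhesion molecule, was at 63.7 to 89.7 TPM in the grey libraries against 67.4 to 110 TPM in the black, and ESAM at 26.7 to 52.3 TPM and 29.6 to 61.9 TPM.

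ALPL encodes tissue-nonspecific alkaline phosphatase, whose activity is the usual histochemical mark of the papilla. It lies on chromosome 2 (54849504-54898142, plus strand) and was assembled as 1 transcript of 12 exons in every library. It was at 12.3, 17.9 and 18.7 TPM in the grey libraries against 19.0, 23.4 and 22.9 TPM in the black. All 3 black libraries lay above all 3 grey libraries, but grey replicate 3 and black replicate 1 were separated by less than the spread within either colour. The means were 16.3 ± 3.49 TPM in the grey libraries against 21.8 ± 2.38 TPM in the black (SD, n = 3), a log2 difference of 0.41 (95% interval -0.09 to 0.91, limma unadjusted p 0.093, adjusted p 1.00). The order held in reads per aligned gigabase, at 163, 229 and 241 in grey and 243, 313 and 300 in black.

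VCAN encodes versican, a large proteoglycan of the papilla matrix during growth and also of dermis and vessels. It lies on chromosome 1 (450959686-451094719, plus strand) and was at 18.1, 7.87 and 6.29 TPM in the grey libraries against 10.1, 8.03 and 35.4 TPM in the black. Black replicate 3 stood apart and grey replicate 1 was second, with the other 4 libraries between 6.29 and 10.1 TPM. The means were 10.7 ± 6.39 TPM in the grey libraries against 17.8 ± 15.2 TPM in the black (SD, n = 3), a log2 difference of 0.52 (95% interval -0.91 to 1.94, limma adjusted p 1.00) that turned to -0.10 without black replicate 3.

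Of 7 macrophage and neutrophil genes, 5 (MRC1, CSF1R, CD14, CD163 and CD68) were highest in black replicate 3, the library with the highest VCAN. MRC1 was at 58.3 TPM there and at 18.6 to 32.8 TPM in the other 5 libraries. The nearest profiles to VCAN were CMTM3 (0.24 log2 units) and NCKAP1L (0.26), the latter a gene of blood cells, which in black replicate 3 was at 10.2 TPM and in grey replicate 1 at 7.41 TPM. The part of macrophages in the VCAN level was not tested. The fibroblast genes summed to 4203, 2768 and 1216 TPM in the grey libraries against 3309, 2739 and 3238 TPM in the black, highest in grey replicate 1 and lowest in grey replicate 3, where VCAN was also lowest.

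VCAN has 2 large exons that are spliced in or out to make versican with more or fewer glycosaminoglycan attachment sites. In the possum the exons were 2958 nt (chromosome 1, 451013918-451016875) and 5307 nt (451039432-451044738). Transcripts with both exons were at 9.08, 3.82 and 0 TPM in the grey libraries against 0, 4.93 and 13.2 TPM in the black, transcripts with the 5307 nt exon alone at 8.98, 4.05 and 3.20 TPM in the grey libraries against 6.56, 3.10 and 22.2 TPM in the black, and transcripts assembled in part at 3.10 TPM (grey replicate 3) and 3.50 TPM (black replicate 1). No end-to-end transcript lacked both. The coverage of the 2958 nt exon was 0.21, 0.22 and 0 times that of the 5307 nt exon in grey and 0.28, 0.31 and 0.19 times in black. The 2 highest ratios were black, and black replicate 3, where VCAN was most abundant, was lowest among the libraries in which the exon was assembled. The exon was listed at 0 in grey replicate 3, which shows that it was not assembled there. Coverage was also compared between 5 exons before the 2958 nt exon and 6 exons after the 5307 nt exon. This early-to-late ratio was 0.16, 0.19 and 0.15 in grey and 0.15, 0.24 and 0.16 in black. Black replicate 2 was highest in both ratios. The part of low coverage of early exons in the ratio of the 2 large exons was not tested.

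**Figure D3:**
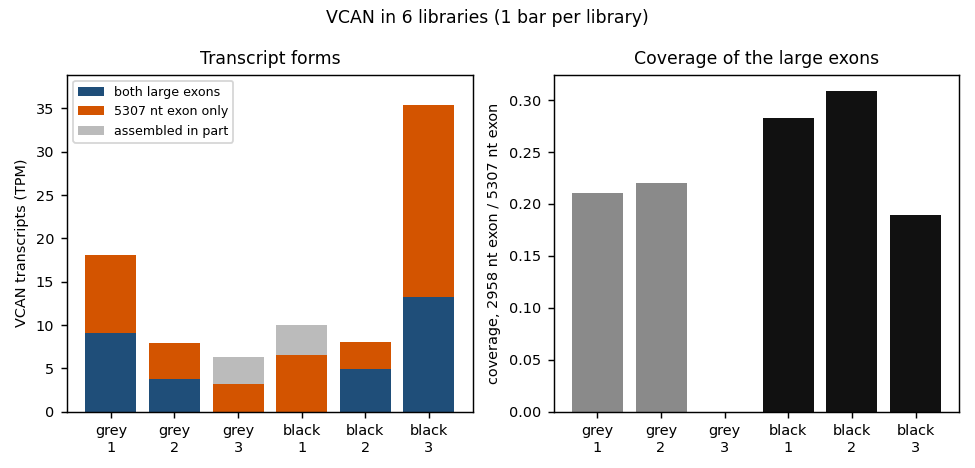
VCAN transcript forms (left, TPM, stacked bars from 0) and the coverage of the 2958 nt exon over that of the 5307 nt exon (right, ratio, bars from 0) in each of 6 libraries. Black replicate 3 holds the most of both forms, while its exon ratio of 0.19 is the lowest above 0.

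The hair shaft list, made of genes of the growing hair, was set beside all 9 genes. KRT25, a keratin of the inner root sheath, was at 736 TPM in grey replicate 1, at 16.3 TPM in grey replicate 3 and at 2.85 to 3.35 TPM in the other 4 libraries. In that library CORIN, WIF1, FGF7 and BMP4 had their highest TPM of the 6 and ALPL had its lowest. By coverage per aligned gigabase, 2 of 9 genes, FGF7 and BMP4, were highest in grey replicate 1. Skeletal muscle genes were high in black replicate 1 alone, where by TPM WIF1 had its lowest level of the 6 libraries and the other 8 genes did not. By reads per aligned gigabase 4 of 9 genes, CORIN, WIF1, FGF7 and BMP4, were lowest in black replicate 1. The part of these cells in the results was not tested.

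**Figure D4:**
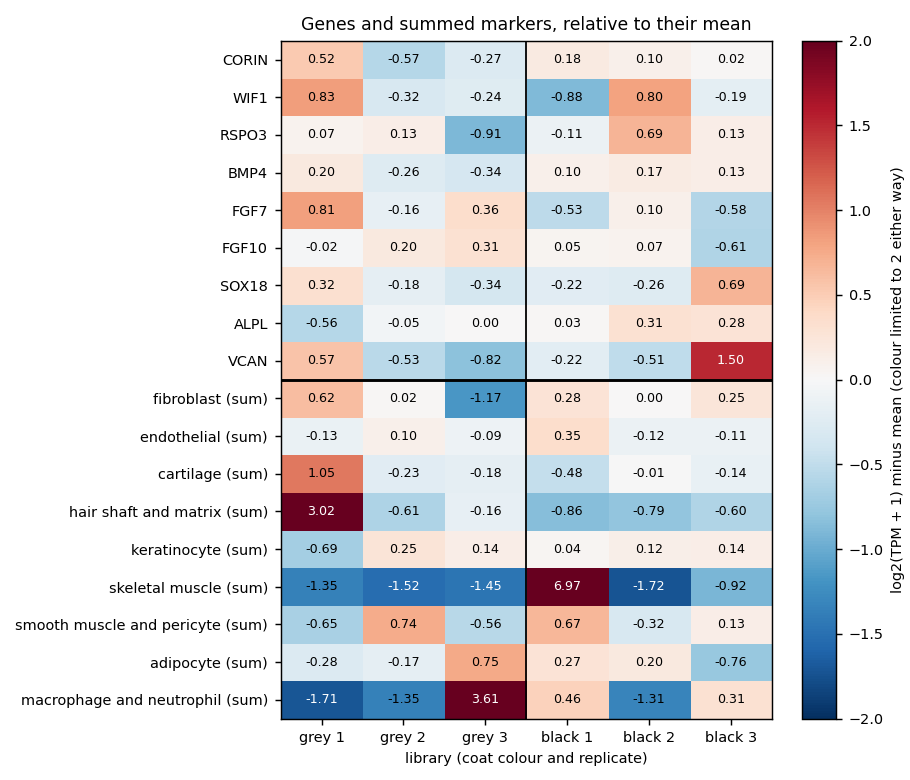
Each of the 9 genes and the summed markers of 9 cell types in 6 libraries, as log2(TPM + 1) minus the mean over the libraries (colour limited to 2 units either way). Grey replicate 1 is 3.02 log2 units above the mean in hair shaft markers and 1.05 in cartilage markers, and VCAN is highest in black replicate 3. The macrophage and neutrophil sum of grey replicate 3 (7865 TPM) is mostly S100A8 (7795 TPM).

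**Figure D5:**
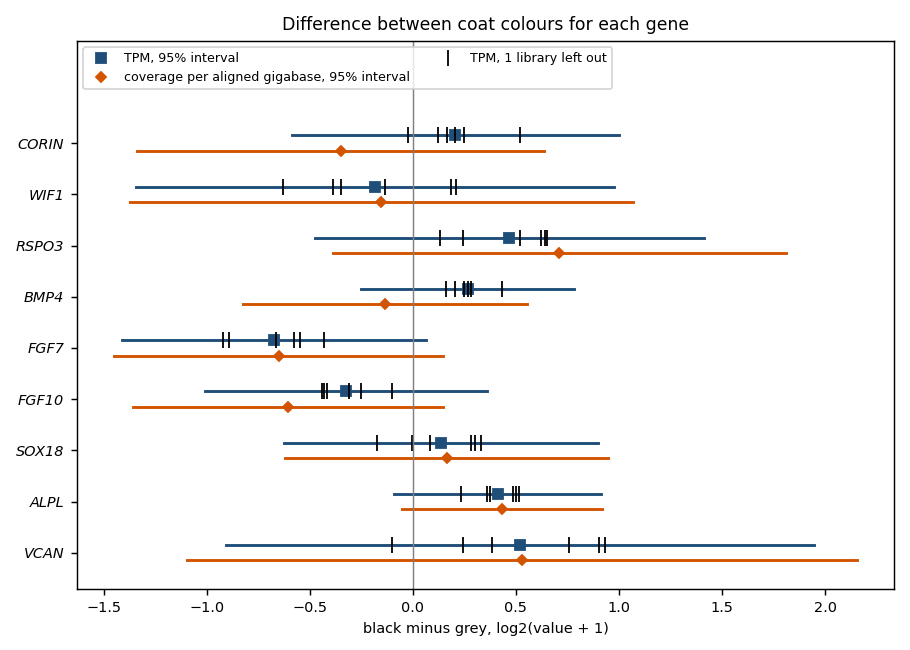
Fitted difference between the colours (black minus grey, log2(value + 1)) for each gene, from TPM (blue squares) and from coverage per aligned gigabase (orange diamonds), with 95% intervals, and from TPM with 1 library left out (black ticks). All intervals span 0, and the sign differs between the scales for CORIN and BMP4.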

How the data were processed

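Poly(A)-enriched, strand-specific libraries of ear skin were sequenced as 120 bp single-end reads. Per the labels and the file headers, the authors used Trim Galore (version 0.6.10, Phred 20) for trimming and HISAT2 (version 2.2.1) for mapping, and assembled each library separately with StringTie (version 2.2.0). Each deposited transcript has TPM and FPKM values besides the coverage of its exons. These are not counts, and no count model was used. Reads are coverage times length over 120 bp, and aligned gigabases come from coverage over FPKM.

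RefSeq gene spans carry no exons or strand, so both were inferred from assembled transcripts (span overlap of at least 0.5, or 80% inside); 236533 of 274079 transcripts were assigned by shared exon bases. TPM was summed per gene. Colours were compared with limma (version 3.58.1, R version 4.3.3; mean-variance trend) on log2(TPM + 1), with Benjamini-Hochberg adjustment over 15607 genes and a threshold of 0.05. Differences on this scale understate those of low genes. The fit was tested on simulated data.

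The 9 genes and the gene lists were chosen with earlier results of these data known. Other genes named come from the 3 most abundant of each pathway list (2 of each cell type list), any that passed (none did), and the 2 nearest profiles of genes with an SD above 0.5 log2 units. WNT3A, WNT5B, WNT16, DKK1, ETV4, HGF, CSF1R, CD14, CD163, CD68, CDH5, FLT4, KDR, EGFL7, PROX1, TCHH and NFXL1 fall outside this rule and were named after their values were seen. Alternatives were a pseudocount of 0.1, filters, quantile scaling, no trend, library weights, a replicate block, multi-exon transcripts, coverage per aligned gigabase and leaving out each library.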

Additional observations from a re-analysis of the deposited data

How the results depend on the processing

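Under 15 alternative settings 0 of 9 genes passed the threshold, and the smallest adjusted p was 0.991. Direction was kept in all settings by 4 genes (ALPL, FGF7, FGF10 and RSPO3). Of 132 values, 9 changed sign: CORIN (-0.35 by coverage, -0.025 without grey replicate 2), BMP4 (-0.14 by coverage, -0.040 with multi-exon transcripts only), SOX18 (-0.0016 without grey replicate 3, -0.17 without black replicate 3), WIF1 (0.19 without grey replicate 1, 0.21 without black replicate 1) and VCAN (-0.10 without black replicate 3). The cause was not tested. With 1 library left out, the differences ran from -0.025 to 0.52 for CORIN, -0.17 to 0.33 for SOX18, -0.63 to 0.21 for WIF1, -0.10 to 0.93 for VCAN, 0.16 to 0.43 for BMP4, 0.13 (without grey replicate 3) to 0.65 for RSPO3, -0.44 to -0.10 (without black replicate 3) for FGF10, 0.23 (without grey replicate 1) to 0.52 for ALPL and -0.92 to -0.43 for FGF7, and the median over the 9 genes from -0.10 to 0.33. By coverage per aligned gigabase the median was -0.14, FGF10 was at -0.60 and RSPO3 at 0.71. With a mean of at least 5 TPM, 6 of the 9 genes were tested.

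Over all genes, 1 was higher and 1 lower in black. The count higher was 0 with the 5 TPM filter, with multi-exon transcripts only and with the replicate block, and 0 to 2 with 1 library left out. The count lower was 2 without the variance trend, 0 with the replicate block and 0 to 2 with 1 library left out. Same-numbered libraries did not deviate together (correlations of -0.03, 0.02 and -0.05). With 3 libraries of each colour, these values cannot show whether the numbers pair the possums. The replicate block left 0 of 9 genes past the threshold. The settings were also run on 57 other genes, the most abundant of the lists, not all of which are named here. Of these, 35 changed sign in at least 1 setting and none passed, with a smallest adjusted p of 0.991. No direction is therefore given for them except where the colours did not overlap. Low read numbers limit CORIN, RSPO3 and ASIP, with 59.9 to 245, 60.3 to 380 and 6.75 to 209 reads.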
